A study of Drosophila melanogaster with 2 samples.

Results

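The regions described here are the deep intronic regions of the CG11723-GFP binding list in Drosophila melanogaster embryos: those whose summit lay more than 2000 bp from the nearest transcription start site (TSS) of any annotated gene, inside an annotated transcript and in no exon. They were 737 of the 3869 regions (19.0%, 95% interval 17.8 to 20.3%, exact binomial) on the dm6 list that had passed the irreproducible discovery rate (IDR), a measure of agreement between replicates. Chromatin immunoprecipitation and sequencing (ChIP-seq) with an antibody against GFP had been carried out on whole embryos of both sexes, 0 to 16 hours old, from a transgenic line in which GFP was fused to the C-terminus of CG11723. There was 1 group of 2 samples, biological replicates 1 and 3, and both carried the transgene. All values below are therefore from 1 condition, with no untagged or other control sample analysed here, and embryos of every stage and tissue were pooled in each sample. The summit is the position of highest enrichment within a region, and the signal is the enrichment that the authors' peak caller gave it, on a scale that is not stated. It is used below only to rank and describe regions within 1 list. Read numbers are not in the lists, so the depth of each sample is unknown here. Intervals on shares and densities cover counting error only, and p-values compare regions, which are not replicates of the embryos.

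CG11723 is an uncharacterized gene, and ChIP-seq of a tagged protein recovers DNA that the protein touches directly or through partners. In the compact fly genome, long introns are concentrated in genes for transcription factors, signalling proteins and neuronal proteins, and they hold many of the enhancers that switch these genes on in particular cells and times. An intron can also hold start sites of other genes, so the 2000 bp limit, taken over all genes, sets these regions apart from annotated promoters. A region inside a gene is not shown to act on that gene. CG11723 itself spans 1979 bp and has no sequence that meets the rule.

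The summit base with the 50 bp on either side shows what these regions look like. All are given on the plus strand of dm6, from the RefSeq Release 6 assembly. The first 6 belong to regions of high signal, in Tlk (chrX:3742187-3742287), CG32486 (chr3L:3060736-3060836), simj (chr3L:10682927-10683027), Raf (chrX:2297682-2297782), trx (chr3R:14283833-14283933) and Gug (chr3L:8458269-8458369), and are shown for their range of base composition. The regions in S (chr2L:1072334-1072434) and gukh (chr3R:18998106-18998206) are shown because they hold the forkhead motif, the recognition sequence of forkhead domain proteins. Capitals mark a match to the TATA box letters in Gug and to the forkhead letters in S and gukh, and the first 5 hold none of the motifs that differ between summits and flanks below.
Tlk: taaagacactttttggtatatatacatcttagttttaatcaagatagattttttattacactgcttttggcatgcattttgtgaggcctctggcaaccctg
CG32486: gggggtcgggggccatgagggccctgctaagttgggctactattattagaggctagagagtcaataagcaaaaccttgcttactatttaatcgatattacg
simj: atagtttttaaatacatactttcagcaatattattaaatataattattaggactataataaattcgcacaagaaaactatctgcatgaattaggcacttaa
Raf: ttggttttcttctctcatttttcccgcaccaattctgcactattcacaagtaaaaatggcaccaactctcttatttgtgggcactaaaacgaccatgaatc
trx: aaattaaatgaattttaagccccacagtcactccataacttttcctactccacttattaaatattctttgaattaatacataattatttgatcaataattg
Gug: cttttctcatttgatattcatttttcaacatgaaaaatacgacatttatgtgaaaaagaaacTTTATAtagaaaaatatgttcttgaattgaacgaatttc
S: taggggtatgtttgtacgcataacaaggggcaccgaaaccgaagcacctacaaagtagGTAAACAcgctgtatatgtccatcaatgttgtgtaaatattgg
gukh: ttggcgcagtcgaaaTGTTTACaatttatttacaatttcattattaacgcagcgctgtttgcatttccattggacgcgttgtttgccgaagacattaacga
The GC content of these windows ran from 22.8% in simj and Gug, 24.8% in trx and 33.7% in Tlk to 39.6% in Raf and 46.5% in CG32486, and was 42.6% in S and 38.6% in gukh. All deep intronic sequence of the genome, cut into windows of the same length, averaged 40.2%.

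The deep intronic region of highest signal lay in Tlk, the Tousled-like kinase of chromatin assembly, at chrX:3742018-3742408. Its signal was 935 in the pooled data, 503 in replicate 1 and 443 in replicate 3, which placed it at 19 (replicate 1) and 22 (replicate 3) in the replicates' own lists. The next was in sbb (scribbler), a zinc finger corepressor, at chr2R:18336837-18337409, with a signal of 903. Its place was 8 by the signal of replicate 1 and 104 by that of replicate 3. A region at chr2R:10219863-10220292, with a signal of 818, lay in Hr3, a nuclear receptor of the ecdysone response, and also in the overlapping genes CG12912 and CG46321, and ranked 63 and 19. These 3 regions were thus near the top of both replicates, with different orders.

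Several other hosts of the 20 regions of highest signal code for chromatin regulators or corepressors. The region in simj, a subunit of the NuRD remodelling complex, had a signal of 620, and the one in trx, a histone methyltransferase of the Trithorax group, had 584. Gug (Atrophin, a corepressor) followed with 566, Smr (a nuclear receptor corepressor) with 459, JIL-1 (a histone H3 kinase) with 445 and upSET (a SET domain chromatin protein) with 430. Signalling genes among the 20 were Raf, the MAP kinase kinase kinase (585), S or Star, needed for the trafficking of EGF receptor ligands (477), and aos or argos, a secreted inhibitor of that receptor (448, in a region that also lies in CG33158). The remaining ones were CG12769 (813), CG32486 (726), Hr4, a nuclear receptor with 2 regions (465 and 435), tara (436), the kinase gene mnb (428), the synaptic scaffold gene gukh (420) and ush, a cofactor of GATA factors (418). All 20 were among the 3869 regions of highest signal in each replicate. This is partly built in, since both replicates contribute to the pooled signal and to the IDR list. Among the 20, the replicates' ranks differed by the most places for gukh, at 120 in replicate 1 against 1247 in replicate 3, while CG32486 was at 155 and 24.

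Signal in the deep intronic regions ran from 88.8 to 935, with a median of 131 (quartiles 105 and 182), against a median of 148 (109 and 229) in the other IDR regions. They were less often above the median of the whole list: 302 of 737 (41.0%, interval 37.4 to 44.6%), against 1632 of 3132 other regions (52.1%, 50.3 to 53.9%; odds ratio 0.638, 2-sided Fisher exact test p = 6.11e-08). The share was also below the 57.0% of promoter regions, whose summit lies up to 500 bp from a TSS (Fisher exact p = 1.52e-13), and below the 49.7% of intronic regions 501 to 2000 bp from a TSS (p = 0.00171). Against intergenic regions over 2000 bp from a TSS, at 35.6%, the exact test gave p = 0.119. By each replicate's own signal, 41.7% of the deep intronic regions were above the list's median in replicate 1 and 33.9% in replicate 3, against 52.0% and 53.8% of the other IDR regions.

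Of the 737 regions, 422 (57.3%, 53.6 to 60.9%) overlapped the 3869 regions of highest signal of both replicates, against 1897 of the other IDR regions (60.6%; odds ratio 0.872, Fisher exact p = 0.103). The direction of this comparison turned with the length of the top lists: the odds ratio was 0.531 with 0.5 times as many top regions (Fisher exact p = 7.51e-12) and 1.35 with 2 times as many (Fisher exact p = 0.0136). Another 172 (23.3%) were in the top of replicate 1 alone, 125 (17.0%) in that of replicate 3 alone, and 18 (2.44%) in neither. No region at all was listed at 6 of the 737 in replicate 1 and at 18 in replicate 3. Overlap with the replicates' top regions is partly built in, since both contribute to the pooled signal and to the IDR list. Spearman's rho between the replicates' signals was 0.326 over the 713 deep intronic regions listed in both, 0.514 over 2900 other IDR regions and 0.574 over 1777 promoter regions, as a description across regions that share libraries. Within the list, a deep intronic region of high pooled signal could therefore stand far lower in 1 replicate.

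**Figure D1:**
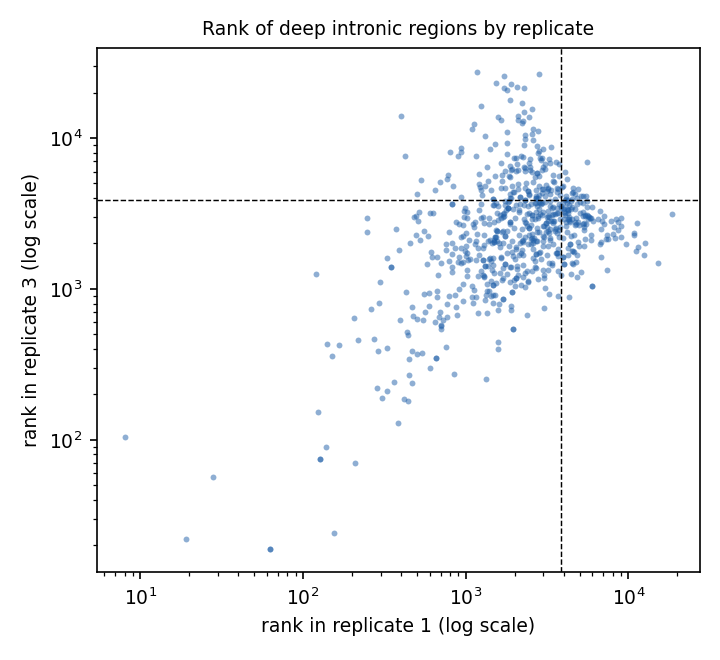
Rank by signal of each deep intronic region in replicate 1 (x axis, log scale) and replicate 3 (y axis, log scale), 1 point per region listed in both, n = 713; dashed lines mark rank 3869, the length of the IDR list. Of all 737 regions, 422 lay within that rank in both replicates, 172 in replicate 1 alone and 125 in replicate 3 alone.

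The deep intronic share was lower at the top of the list. It was 8.20% among the 500 pooled regions of highest signal, 13.8% at ranks 501 to 1000, 20% at ranks 1001 to 2000 and 22.8% at ranks 2001 to 3869. In the lower-ranked regions of the pooled list, those that overlap no IDR region, it was 33.8% (8500 of 25167). IDR regions were thus less often deep intronic than lower-ranked ones (odds ratio 0.461, Fisher exact p = 7.58e-81), while promoters made up 70.6% of the 500 of highest signal. Among regions over 2000 bp from any TSS the direction was the opposite: 737 of 1051 IDR regions (70.1%) were deep intronic, against 8500 of 14143 lower-ranked ones (60.1%; odds ratio 1.56, Fisher exact p = 7.92e-11). Taken alone, the 3869 regions of highest signal held 711 deep intronic ones (18.4%) in replicate 1 and 677 (17.5%) in replicate 3.

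Deep intronic regions lay a median of 5055 bp from the nearest TSS (quartiles 3263 and 8619 bp, range 2012 to 59338 bp) and 2773 bp from the nearest exon, in introns with a median length of 18008 bp. For 510 of them (69.2%) the nearest TSS belonged to a gene that contains the region. Just inside the 2000 bp limit, the 5 nearest members, 2012 to 2026 bp from a TSS, had signals of 147, 157, 89.4, 166 and 116. The 5 intronic regions just outside it, at 1973 to 1997 bp, had 234, 200.8, 206, 106 and 211. The regions were not isolated: 382 (51.8%) had the summit of another IDR region within 5000 bp, and the median distance to the nearest one was 4742 bp, against 4081 bp for promoter regions and 5638 bp for intergenic ones.

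Sequence that meets the rule amounts to 41.4 Mb, 30.9% of the 134 Mb of the 6 arms, and held 17.8 regions per Mb (16.5 to 19.1, exact Poisson 95% interval). Density fell with distance from the TSS: 27.7 per Mb at 2001 to 3000 bp, 27.5 at 3001 to 5000 bp, 20.4 at 5001 to 10000 bp, 13.0 at 10001 to 20000 bp and 4.39 beyond 20000 bp, where there were 38 regions. Lower-ranked deep intronic regions also thinned out, from 264 per Mb in the nearest of these intervals to 125 per Mb in the farthest. By arm, the 5 large ones held between 15.5 per Mb (3R) and 19.7 per Mb (X), and arm 4 held 7 regions or 15.7 per Mb (6.32 to 32.4).

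First introns held most of them. Of the 737 summits, 451 (61.2%) lay in the first intron of a transcript of a protein-coding gene, which accounts for 36.0% of the deep intronic sequence and gave 30.2 regions per Mb (27.5 to 33.1). Sequence in later introns only held 274 regions, or 10.7 per Mb (9.51 to 12.1). Lower-ranked regions differed less between the 2 kinds of sequence, with 271 and 168 per Mb. The difference was present within each interval of distance from the TSS: 37.5 per Mb in first introns and 17.8 in later introns at 2001 to 5000 bp, 30.3 and 13.7 at 5001 to 10000 bp, and 17.9 and 5.82 beyond 10000 bp. Distances inside an interval were not matched, and the last interval has no upper limit. In each replicate's own top list the first-intron share was 60.2% (428 of 711, replicate 1) and 62.9% (426 of 677, replicate 3).

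**Figure D2:**
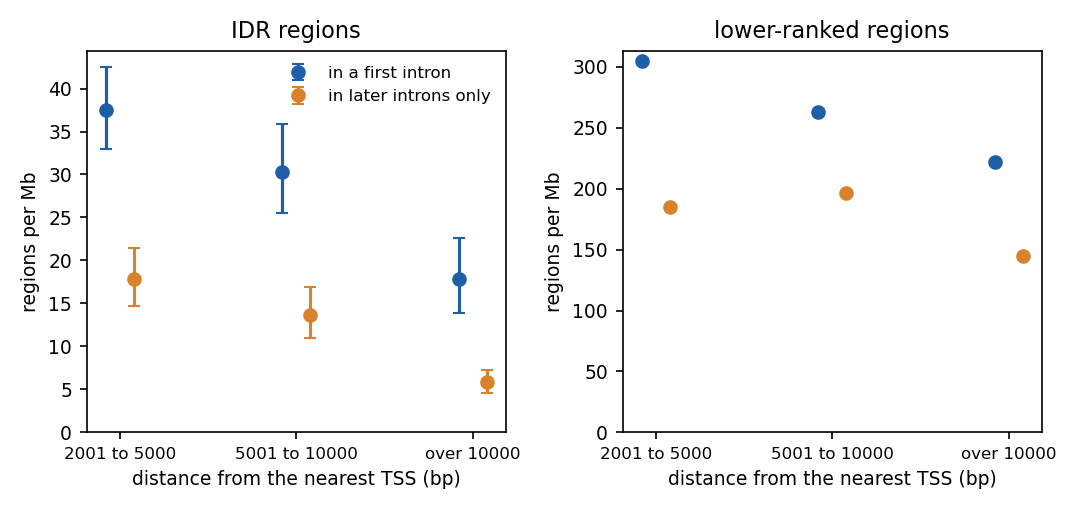
Deep intronic regions per Mb of sequence (y axes, from 0) by distance from the nearest TSS (x axes, bp) in first introns (blue) and in later introns only (orange); left, IDR regions with exact Poisson 95% intervals, right, lower-ranked regions. First introns held more IDR regions per Mb in every distance interval, from 37.5 against 17.8 nearest the TSS to 17.9 against 5.82 beyond 10000 bp.

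Transposable elements held few of the summits. The annotated elements make up 8.33% of the deep intronic sequence and held 7 of the 737 summits (0.95%), or 2.03 per Mb (0.816 to 4.18), against 19.2 per Mb outside them. Among lower-ranked deep intronic regions the share was 3.74%, and in the replicates' own top lists it was 1.13% (replicate 1) and 0.443% (replicate 3). The signal of the 7 ran from 104 to 187, the highest in a G5 element within nAChRalpha4. Soft-masked bases, which include other repeats, made up 21.4% of the deep intronic summit windows, 19.4% of lower-ranked ones and 24.0% of all deep intronic sequence.

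The 737 regions fell in 442 protein-coding genes, 10.5% of the 4216 such genes that have any sequence meeting the rule. Of the regions, 12 had no protein-coding host and 30 had more than 1. A single region was found in 272 genes, and 82 genes with 3 or more regions held 295 of them. The share of genes with a region grew with the amount of such sequence, at 2.42% of genes with up to 5 kb, 20.8% with 5 to 20 kb, 30.4% with 20 to 50 kb and 46.6% above 50 kb. Hosts had a median of 18.3 kb of deep intronic sequence and the other genes 1.12 kb, so counts per gene are given below with the length or per Mb.

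The most regions, 9 each, were found in sbb, in tara, which codes for a regulator of the cell cycle, and in kirre, an adhesion protein of myoblast fusion. The 9 of sbb had signals from 91.5 to 903 in 46.8 kb of deep intronic sequence, and those of tara 96.9 to 436 in 25.1 kb. The 9 of kirre, with signals of 95.2 to 343, were spread over 287.5 kb, which is 0.313 per 10 kb against 1.92 in sbb and 3.58 in tara. The 9 of tara include neighbouring summits, at 6.36 and 6.56 kb and at 27.97 and 28.17 kb from its 5′ end. Within each pair the ranks were the same in both replicates, so these may not be separate sites. In the replicates' own top lists sbb had 8 (replicate 1) and 9 (replicate 3), tara 7 and 10, and kirre 9 and 8. Eip75B and ftz-f1, nuclear receptors of the ecdysone cascade, had 7 each. Those of ftz-f1 also include such a pair, at 31.68 and 31.90 kb. Raf, the Dpp pathway zinc finger gene shn (schnurri) and the forkhead gene CHES-1-like had 6 each, the last of them in only 7.45 kb, or 8.05 per 10 kb. Hr4, ush, the zinc finger gene jing, CG42238 and CG8312 had 5 each, and Hr3 and the overlapping CG12912 shared the same 4. All 5 regions of Hr4 and all 6 of shn were in the top of both replicates, while CG8312 had 1 of 5 and CG42238 2 of 5 there.

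**Figure D3:**
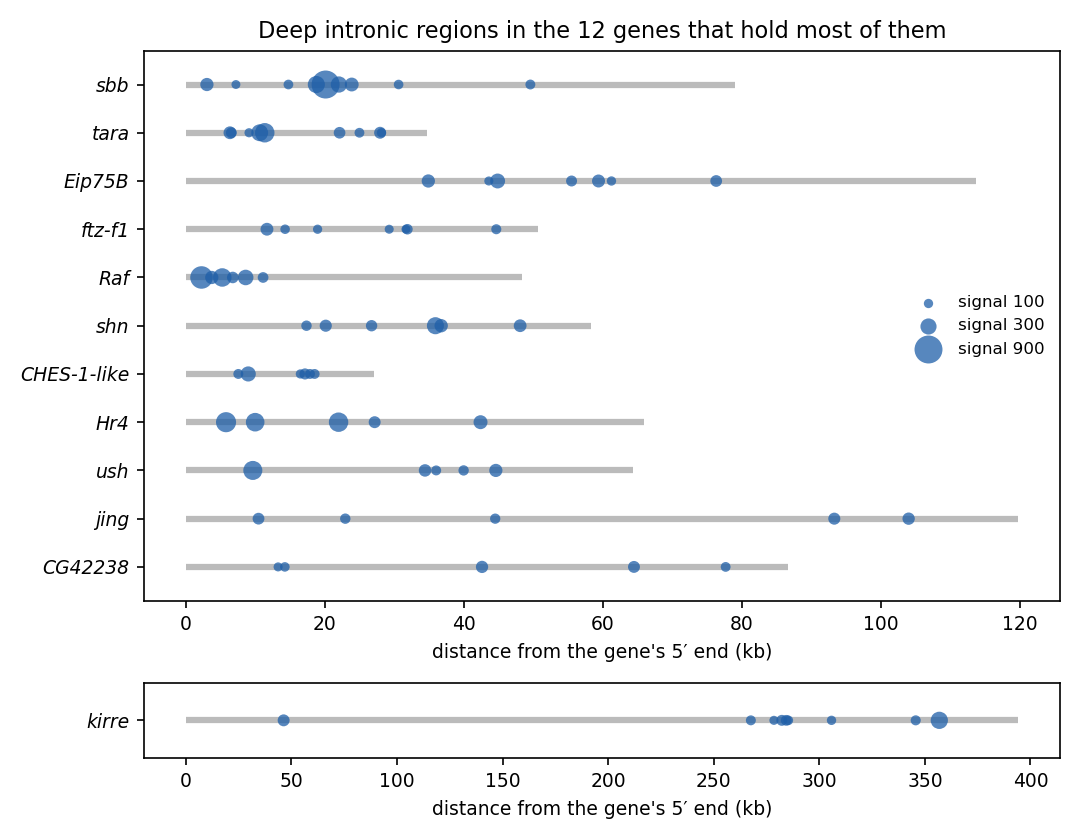
Summits of deep intronic regions (circles, area in proportion to pooled signal) along the 12 protein-coding genes that hold most of them, as distance from the gene's 5′ end in kb (x axis); grey bars span each gene, and kirre has its own scale below. The 6 regions of Raf cluster towards its 5′ end, and 8 of the 9 in kirre lie in the distal part of the gene.

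Among the gene lists, the Dpp and Activin pathway had the highest density of regions. Over all protein-coding genes there were 18.1 regions per Mb of deep intronic sequence. The lists were not matched for distance from the TSS or for first introns, and density changed with both. The genes of the Dpp and Activin pathway had 90.8 per Mb (50.8 to 149.8), with regions in 6 of the 14 genes that have such sequence. They were shn (6 regions, highest signal 336), the inhibitory Smad Dad (4, 315), the extracellular antagonist sog (2, 203), the ligand gene dpp itself (1, 203), the co-receptor gene dally (1) and the receptor gene tkv (1). The replicates' own top lists gave 90.8 (replicate 1) and 109 per Mb (replicate 3).

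Forkhead and bHLH factor genes had 81.4 regions per Mb in 8 of 16 genes. Among them were CHES-1-like (6), crp (4, highest signal 349), the midline regulator sim (1, 365) and the Myc antagonist Mnt (3, 231). Nuclear receptor and ecdysone response genes had 57.6 per Mb, with 31 regions in 7 of 20 genes: Hr3, Hr4, Eip75B, the ETS factor gene Eip74EF (3, 234), ftz-f1, the coactivator gene tai (4, 127) and the receptor gene EcR (1, 123). In the Ras-MAPK and receptor tyrosine kinase list, with 56.8 per Mb in 7 of 19 genes, regions covered several steps of the pathway. These were the secreted EGF receptor ligand vn (1, 271), the inhibitor aos (1), the receptor genes Egfr (1, 113) and InR (1, 191), the kinase Raf (6) and the nuclear effectors aop (2, 288) and pnt (2, 235).

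Polycomb and Trithorax group genes had 51.2 per Mb from 5 regions, with an interval of 16.6 to 119.5 that includes the value for all genes, in trx, Psc, ph-p and tna. Wnt, Hedgehog and Notch pathway genes had 40.3 per Mb (24.3 to 62.9) in 10 of 25 genes, led by mam (3, 383), a coactivator of Notch, the receptor gene fz (4, 327), the receptor N itself (1, 289) and the Hedgehog receptor ptc (1, 199). There the replicates differed, with 38.2 per Mb in replicate 1 and 19.1 in replicate 3. Zinc finger and GATA factor genes had 38.6 per Mb (26.4 to 54.5) in 11 of 29 genes, among them sbb, ush, shn (also counted with Dpp) and ken (2, 327). For the lists named next, of 6 to 14 regions each, the interval included the value for all genes. They were the circadian and growth list with 36.9 per Mb (13.5 to 80.2), the Hippo and planar polarity list with 32.1 (11.8 to 70.0), the segmentation list with 31.2 (11.4 to 67.9), the Hox list with 25.5 (11.7 to 48.4) and the muscle and mesoderm list with 25.4 (13.9 to 42.5). In the Hox list, regions lay in hth (4), Antp (4, 155) and Abd-B (1, 186), which is 3 of 10 genes.

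Of the 14 regions in muscle and mesoderm genes, 9 were in kirre and 4 in the muscle factor gene Mef2. Cytoskeleton and adhesion genes had 19.4 per Mb and neural identity genes 18.9 per Mb, near the value for all genes. Axon guidance genes had 12.1 per Mb (7.59 to 18.3), with single regions or up to 3 in fra, caps, Sema1a and Fas3 among others. RNA-binding protein genes had 8.53 per Mb (4.41 to 14.9) in 10 of 26 genes. The ion channel and neurotransmitter receptor list had 4.01 (1.30 to 9.35), with 5 regions in 4 of 38 genes, nAChRalpha4, dnc, Ca-beta and Shal. Of these, dnc codes for neither kind of protein and held 2 of the 5 regions. Genes of insulator and architectural proteins had no region in 11 genes (interval 0 to 69.9 per Mb), and no ribosomal protein gene has sequence that meets the rule. Lower-ranked deep intronic regions were also unevenly spread over the lists. Against 205 per Mb over all genes, they numbered 553 per Mb in the Polycomb and Trithorax list, 523 in the Ras-MAPK list, 493 in the insulator list, 464 in the Wnt, Hedgehog and Notch list and 448 in the Dpp list. The nuclear receptor list had 338, the forkhead and bHLH list 249 and the ion channel list 111. Both replicates' own top lists placed the Dpp, forkhead and bHLH, nuclear receptor, Ras-MAPK and Polycomb lists at 46.5 per Mb or more and the ion channel list at 4.81. The lists were chosen with results of these data known, so these values describe the lists and do not test them. Their genes also differed in the amount of deep intronic sequence. The median per gene was 4.49 kb in the Dpp list, 8.09 kb in the forkhead and bHLH list and 18.5 kb in the nuclear receptor list. It was 31.7 kb in the ion channel list, but 0.37 kb in the insulator list, which had no region. Whether this accounts for the differences between lists was not tested.

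**Figure D4:**
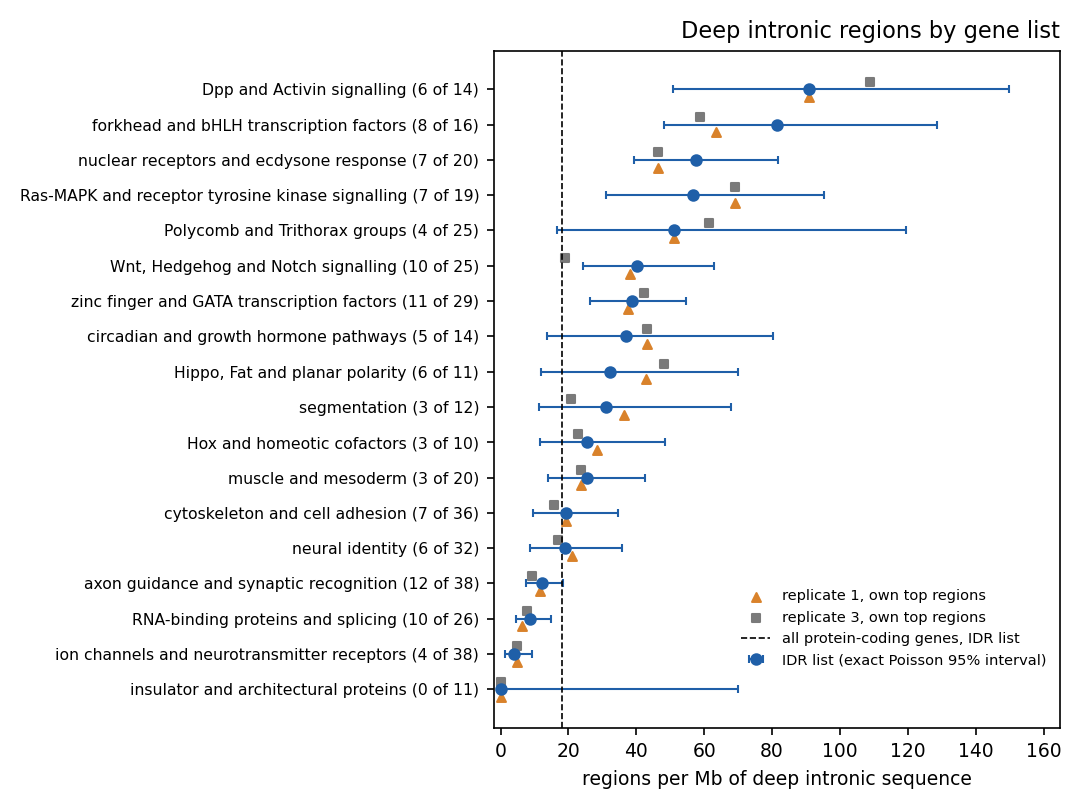
Deep intronic regions per Mb of deep intronic sequence (x axis) by gene list (rows, with the number of genes holding a region out of those with such sequence); blue circles, IDR list with exact Poisson 95% intervals, orange triangles and grey squares, the own top regions of replicates 1 and 3; the dashed line is the value over all protein-coding genes. Values run from 90.8 per Mb for the Dpp and Activin list to 4.01 for the ion channel list and 0 for the insulator list, against 18.1 over all genes.

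A larger share of the host genes than of the other genes also had an IDR region at a promoter. This held for 172 of 442 hosts (38.9%, 34.3 to 43.6%), against 763 of the 3774 other genes with deep intronic sequence (20.2%, 18.9 to 21.5%). Within classes by amount of such sequence, the shares were 36.8% of hosts and 19.6% of others up to 5 kb, and 40.8% and 21.8% at 5 to 20 kb. They were 35.2% and 23.4% at 20 to 50 kb, and 42.7% and 15.1% above 50 kb. Amounts inside a class were not matched, and the last class has no upper limit. A promoter region was counted at any annotated TSS of a gene, and the number of TSSs per gene was not matched. Of the genes with most regions, sbb, Eip75B, shn, CHES-1-like, ush and jing had such a promoter region, while tara, kirre, ftz-f1, Raf, Hr4, Hr3, CG12912, CG42238 and CG8312 did not.

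The DNA at the summits was poor in G and C. It averaged 34.9% GC in these windows around the summit, against 41.7% in windows of the same length centred 500 bp away towards lower coordinates, a difference of -6.73 percentage points (SE 0.467, across regions), and was lower than its own flank in 506 of 737 regions (68.7%). Lower-ranked deep intronic regions had 40.8% at the summit and a difference of 0.159 points (SE 0.143) from the same flank. Nearer by they showed a shallow dip, with 40.6% in 51 bp at the summit, against 41.9% at 250 bp towards lower coordinates and 42.0% at 250 bp towards higher ones. Promoter summits averaged 36.6%, with a difference of -6.56 (SE 0.359), so that the dip was present in both classes. In the replicates' own top lists it was -4.36 (SE 0.507, replicate 1) and -7.86 (SE 0.468, replicate 3). Among regions in the top of replicate 1 alone it was -1.11 (SE 1.05, n = 172), against -9.33 (SE 1.04, n = 125) for replicate 3 alone and -8.31 (SE 0.572, n = 422) for the top of both.

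Sequence motifs were counted on both strands in the same windows, 29 motifs in all, with p-values adjusted over them by Benjamini-Hochberg. The exact McNemar test of summits against flanks called 6 (20.7% of those tested). The forkhead letters TGTTTAC were found at 57 summits (7.73%, 5.91 to 9.90%) and at 20 flanks (2.71%; adjusted exact p = 0.000182). Also more frequent at summits were the TATA box letters TATAAA, at 150 summits and 77 flanks (20.4% and 10.4%; adjusted exact p = 9.50e-06), the Sox letters AACAAT (111 and 76, adjusted exact p = 0.0438) and CACAGTG, a string that earlier counts of these data had picked (16 and 4, adjusted exact p = 0.0438). Less frequent were GAGAGAG, bound by GAGA factor (6 and 20, adjusted exact p = 0.0452), and the repeat GCNGCNGC bound by Adf1 (14 and 34, adjusted exact p = 0.0438). CAGGTA, the site of the early embryonic activator Zelda, was at 17 summits and 20 flanks and was not called. The motifs were chosen with earlier results of these data known, so none of these p-values is an independent test. This holds most directly for CACAGTG, a string picked from these data, though it is among the 6. The share of CACAGTG was 2.17% at these summits, 3.19% at other IDR summits and 2.04% at lower-ranked deep intronic ones. TATAAA holds only A and T. Neither its count nor that of any other motif here, forkhead included, was separated from the low GC content of the summits. The difference in GAGAGAG rested on replicate 3, whose own top list had it at 2 summits and 24 flanks, against 21 and 23 in that of replicate 1 (adjusted exact p = 1). The calls for GAGAGAG, Sox, the Adf1 repeat and CACAGTG were lost under most of the alternative settings tried, and the TATA box call was lost with the flank on the other side (adjusted exact p = 0.121).

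The forkhead motif also differed between deep intronic and other IDR summits. Against the other IDR summits, 3 motifs were called (10.3% of those tested) by Fisher's exact test. These p-values too are for motifs chosen with earlier results of these data known. The forkhead letters were more frequent, at 7.73% against 3.83% (odds ratio 2.10, adjusted exact p = 0.000289). The letters TATCGATA, the DRE site of the promoter factor Dref, were found at 1 deep intronic summit (0.136%) and at 67 others (2.14%; adjusted exact p = 0.000289), and their core TCGATA at 3.53% and 7.09% (adjusted exact p = 0.00210). By class, the forkhead share was 5.41% at intronic summits 501 to 2000 bp from a TSS, 2.77% at intergenic ones, 3.59% at promoters and 3.27% at lower-ranked deep intronic summits, and 2.01% of all 409578 windows of deep intronic sequence held it. Against other IDR regions over 500 bp from a TSS alone, the forkhead difference kept its call (odds ratio 1.90, adjusted exact p = 0.0422) and the DRE difference lost it (odds ratio 0.266, adjusted exact p = 0.757), as did that of the DRE core (odds ratio 0.902, adjusted exact p = 1). In replicate 1's own top list, DRE had an odds ratio of 0.330 (adjusted exact p = 0.258) and its core 0.575 (adjusted exact p = 0.0547), and neither was called.

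The replicates differed in the forkhead share. In the top regions of replicate 1 it was 9.56% at deep intronic summits and 2.67% at their flanks, and in those of replicate 3 it was 5.02% and 1.18%, so that summits exceeded flanks in both. Among IDR members it was 13.4% (23 of 172, 8.67 to 19.4%) for the top of replicate 1 alone, 1.6% (2 of 125, 0.194 to 5.66%) for replicate 3 alone and 7.35% (31 of 422) for the top of both. The difference from other summits was not called in replicate 3's own list (odds ratio 1.34, adjusted exact p = 0.515). The share was 7.76% in first introns (35 of 451, 5.46 to 10.6%) and 8.03% in later introns only (22 of 274, 5.10 to 11.9%), and none of the 12 regions outside protein-coding introns held the letters.

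**Figure D5:**
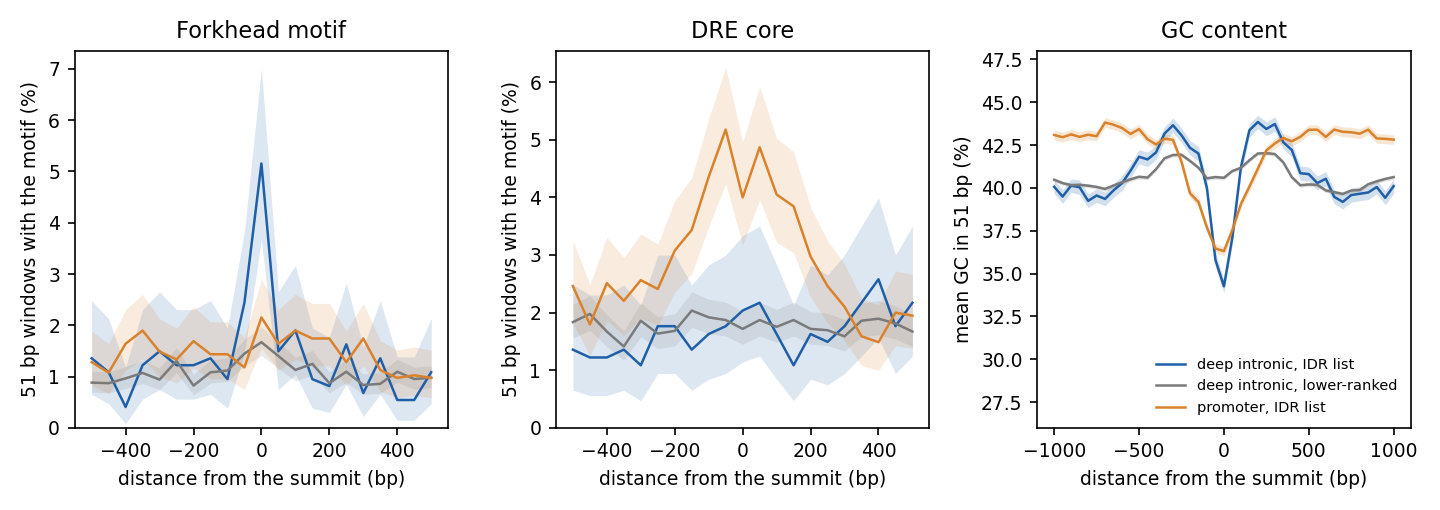
Share of 51 bp windows with the forkhead motif (left) or the DRE core (middle), and mean GC content in 51 bp (right), by distance from the summit in bp (x axes), for deep intronic IDR regions (blue, n = 737), lower-ranked deep intronic regions (grey, n = 8500) and promoter IDR regions (orange, n = 1951); bands are 95% binomial intervals (left, middle) and the SE (right, axis not from 0). The forkhead share of deep intronic regions peaks at the summit at 5.16%, against 1.67% in lower-ranked and 2.15% in promoter regions, the DRE core shows a broad peak in promoter regions, and GC falls to 34.3% at deep intronic summits.

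A count of all 7-letter strings, with no motif list, used the same windows and test, so it is not independent of the motif counts. It led to related letters. Of 8192 strings taken with their reverse complements, 21 (0.256%) differed between summits and flanks at an adjusted McNemar p below 0.05, 20 of them higher at summits and 1 lower, and 657 had an unadjusted p below 0.05. Base composition was not matched between summits and flanks. Most of the 20 were rich in A and T: 15 of the 20 hold at most 1 G or C. The 1 that holds 3 of them was TGTTTGC, at 69 summits (9.36%) and 23 flanks (3.12%; adjusted exact p = 0.00108). Forkhead proteins are known to bind this variant of their site too. It was found at 4.02% of other IDR summits and in 3.51% of all deep intronic windows. TGTTTAC itself was among the 20 (adjusted exact p = 0.00924), which repeats the 57 summits and 20 flanks of the motif count. TATTGAC, named after its value was seen, was another, at 32 summits and 7 flanks (adjusted exact p = 0.0221). The string lower at summits was GGCCACC, at 0 summits and 14 flanks (adjusted exact p = 0.0476). Other strings with 3 or more G or C had the smallest p-values of their kind without passing the threshold: TCAAGGA (13 summits and 0 flanks, adjusted exact p = 0.0667), CTGTGCA (32 and 11, adjusted exact p = 0.178), CAGTGCA (25 and 7, adjusted exact p = 0.187) and CAAACAG (33 and 12, adjusted exact p = 0.197) on the higher side, and GTGGCCA (2 summits and 18 flanks), ACACCCA (3 and 20), AGAACGA (0 and 12) and AAAGCGA (6 and 25) on the lower.

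Taken after their values were seen, TGTTTAC or TGTTTGC was present at 110 of the 737 summits (14.9%, 12.4 to 17.7%) and at 42 flanks (5.70%), against 7.44% of other IDR summits and 5.44% of all deep intronic windows. Both strings occurred together at 16 summits and 1 flank. Among the 110 the highest signal was that of a region in sbb (903), which held TGTTTGC. Others were the regions of S (477), upSET (430) and gukh (420), a region in N (289) and 1 in Eip75B (203). The region in gukh held both strings, as did the one in Lrch with a signal of 293 and the one in Oatp30B with 292, and these 3 were at ranks 120, 348 and 328 of replicate 1 and at 1247, 1396 and 1591 of replicate 3. Of all 16 regions with both strings, 11 ranked lower in replicate 3 than in replicate 1 and 5 did not. Among these 5 was another region in sbb, at 1396 in replicate 1 and 963 in replicate 3. With either string it was 77 of the 104 regions listed in both replicates (74.0%), and over all members 379 of 713 (53.2%).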

How the data were processed

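ChIP-seq region lists of 2 samples, replicates 1 and 3 of 1 group, were used as the authors deposited them, in narrowPeak format on dm6. The submitters' notes say that calling used a control, on each replicate and on both pooled, without a threshold, and that the IDR list came from these. For the aligner, the caller and the IDR cutoff nothing is stated in the sources at hand. The deposited signal is the caller's enrichment, of unstated scale. The deposited −log10 q value is capped, with 559 of the 737 members (75.8%) at its maximum, and was not used to rank. Per the labels, chromatin had been sonicated to 200 to 800 bp.

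Summits were classed with Ensembl release 115 gene models (BDGP6.54, protein-coding and other genes, without transposable element models), and sequence came from RefSeq Release 6, with Python 3.11.15, pandas 2.3.3 and scipy 1.17.1. The IDR list held 3803 distinct coordinates among its 3869 rows, and members formed 713 blocks of overlapping regions. Lower-ranked regions were pooled regions on the 6 arms that overlap no IDR region by 1 bp, and they include background. A replicate's top regions were its 3869 of highest signal. Windows were the summit base and 50 bp on either side, and flanks the same width 500 bp towards lower coordinates. Shares carry Clopper-Pearson intervals. Motif and 7-mer scripts were tested on simulated sequences. Besides the motifs spelled out in the results, these were counted: GATAAG of GATA factors, the E-boxes CAGCTG (bHLH), CACGTG (bHLH), CAGGTG (Snail type) and CATATG (Twist type), AGNNGGCGC of CTCF, TTGCATAC of Su(Hw), GCCATNTT of Pho, the initiator TCAGTT, GGTCACAC of M1BP, CTTTGAT of TCF, TGANTCA of AP-1, TGTGGTT of Runt, TAATTA of homeodomains, TTCNNNGAA of STAT, AACCGGTT of Grainyhead, CAAGGTCA of nuclear receptors, and the repeats of A (AAAAAAA), of AT (ATATATATA) and of CA (CACACACAC). TCGATA overlaps TATCGATA.

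Members, gene lists and motifs were chosen with earlier results of these data known. Named genes are hosts of the 20 members of highest signal, the 15 genes with most members and up to 4 of highest signal per list. Others were chosen after their values were seen, among them the further genes named from the lists and from the forkhead matches. The dm3 lists were not used here.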

Additional observations from a re-analysis of the deposited data

How the results depend on the processing

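Counts followed the rule. A TSS distance of 5000 bp left 375 regions in 241 host genes, and the regions above the median signal 302 in 228, while counting annotated transposable elements as genes, chosen after seeing the data, left 703 regions. Leaving out 1 replicate gave 677 to 711 regions, 407 to 435 hosts, 4 to 6 motifs called against flanks, 2 to 4 against other summits, 17 to 39 7-mers and odds ratios of 0.448 to 0.489 for the deep intronic share and 0.440 to 0.662 for signal above the median. Motifs called against flanks (6) numbered 1 at 5000 bp and with the other flank, 2 with the region centre, 1 region per block or 51 bp windows, and 3 above the median signal or windows of 100 bp on either side. Motifs called against other IDR summits (3) numbered 5 at 1000 bp, 0 at 5000 bp (Fisher's exact test; 5 at an unadjusted p under 0.05), 1 with 51 bp windows or only regions over 500 bp from a TSS, and 6 with windows of 100 bp on either side. The 21 called 7-mers became 73 at 1000 bp, 4 at 5000 bp, 33 with the region centre, 7 above the median signal and 8 with the other flank. The odds ratio for the top of both replicates (0.872) was 0.787 at 5000 bp (Fisher exact p = 0.0305), 0.800 with 50% reciprocal overlap (p = 0.00945), 0.531 with 0.5 times as many top regions (p = 7.51e-12) and 1.35, the opposite direction, with 2 times as many (p = 0.0136); the cause was not tested. Of the other values, 35 kept their direction and side of the threshold or, for counts, stayed within a set factor of the main value. Such counts could still differ: a TSS distance of 1000 bp gave 1039 regions and 619 host genes, against 737 and 442. Among the single motifs and the deep intronic share over 2000 bp from a TSS, 47 calls were kept and 44 lost, none reversed. The forkhead call against flanks was lost only at 5000 bp (adjusted exact p = 0.160, 26 summits against 10 flanks), and the call against other summits at 5000 bp (adjusted exact p = 0.193) and without replicate 1. The DRE call was lost at 5000 bp, with 51 bp windows, without replicate 3 and against only the other IDR regions over 500 bp from a TSS. No paired analysis was possible because there was 1 group. With 2 samples, the spread between embryo collections is known only from the difference of their values.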
